A study of Mus musculus with 9 samples.

Results

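Gasdermin genes were examined in ear skin from mice with dermatitis induced by topical anisomycin or by imiquimod cream. The set comprised Gsdma, Gsdma2, Gsdma3, Gsdmc, Gsdmc2, Gsdmc3, Gsdmc4 and Gsdmd, chosen by gene symbol. A gene was taken as measured where the array's annotation gives a probe set that symbol and no other, which held for 7 of the 8 genes among 19938 genes measured in all. Gsdmc3 has no probe set of its own in that annotation, and signal that may include it is given below with a shared probe set. Each of the 7 had 1 such probe set.

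Whole ear skin was taken from female C57BL/6 mice of 7 to 9 weeks in 3 groups of 3 arrays. In the anisomycin group, 10 µl of a 2 mg/ml solution in 99.5% ethanol was put on each side of the ear once a day for 5 days. Anisomycin is an antibiotic that stalls ribosomes, and stress kinases are switched on in response. In the imiquimod group, 10 mg of a 5% cream was applied to the ear daily for 5 days. Imiquimod is a Toll-like receptor ligand whose cream is widely used to produce a psoriasis-like dermatitis in mice. The vehicle group served as the control, and the labels say neither which vehicle was used nor for how long, so ethanol and the cream base are not controlled separately. The mice carry no transgene or deletion by the labels. Whether the 3 arrays of a group are 3 animals is given only as n = 3, and otherwise p-values measure the spread between these samples, which may be technical.

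Gasdermins are pore-forming proteins kept inactive by their own C-terminal domain. When a protease cuts the linker, the freed N-terminal domain inserts into the plasma membrane and forms a pore, through which IL-1 family cytokines leave the cell and which can end in lytic death, called pyroptosis. Gsdmd is cut by inflammatory caspases and by neutrophil elastase. Gsdma and its relatives are known from epidermis and hair follicle, and dominant mutations of mouse Gsdma3 cause hair loss. Human GSDMC is cut by caspase 8. The mouse genome holds tandem copies of the Gsdma and Gsdmc genes where the human genome has a single gene of each.

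Values are log2 expression after the authors' RMA normalization, and fold changes are differences of log2 means with n = 3 arrays per group. A gene counts as called when its limma p, adjusted by Benjamini-Hochberg over the 19938 genes, is under 0.05. Anisomycin and vehicle ears differed by this rule in 45.6% of all genes, imiquimod and vehicle ears in 42.7%, and the treated groups from each other in 20.4%. Higher genes were 49% of those called for anisomycin and 47.7% of those called for imiquimod against vehicle. These shares were 37.1% and 36.4% with arrays centred on stable genes, and 56.4% and 54.7% with arrays centred on medians. Array medians were 6.01 for anisomycin, 6.02 to 6.03 for imiquimod and 6.08 to 6.10 for vehicle. The epidermal keratin genes Krt5, Krt14, Krt1 and Krt10 had means over the 9 arrays at or above the 99.4th percentile of all genes. On the second principal component, which parts the treatments, anisomycin replicates 1, 2 and 3 scored -31.1, -19.4 and -9.48, and imiquimod arrays lay between 22.6 and 24.4.

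Gsdmc and Gsdma rose strongly with both treatments, Gsdmc2 rose mainly with imiquimod, and the remaining members moved little. With anisomycin 4 of the 7 measured gasdermins were called higher and none lower, by limma, with a median log2 fold change of 0.27, against -0.01 over all genes, of which 22.3% were called higher and 23.3% lower. With imiquimod 6 of 7 were higher and none lower, with a median of 0.30, against -0.03 over all genes, of which 20.4% were called higher and 22.4% lower. The comparisons share their vehicle arrays. Between the treatments 1 of 7 was lower with anisomycin and none higher, with a median of -0.08 against 0.01 over all genes, of which 10.8% were called higher and 9.59% lower. The anisomycin arrays lay wholly above the vehicle arrays for 3 of 7 members and wholly below for none, where 24.9% and 26.4% of all genes did so. The imiquimod arrays lay above the vehicle arrays for 6 of 7 and below for none, where the shares of all genes were 24.4% and 27.4%. The anisomycin arrays lay below the imiquimod arrays for 4 of 7 and above for none, where 17.9% of all genes lay below and 21.4% above. In tissue RNA a higher share of expressing cells and more RNA per cell cannot be told apart.

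**Figure D1:**
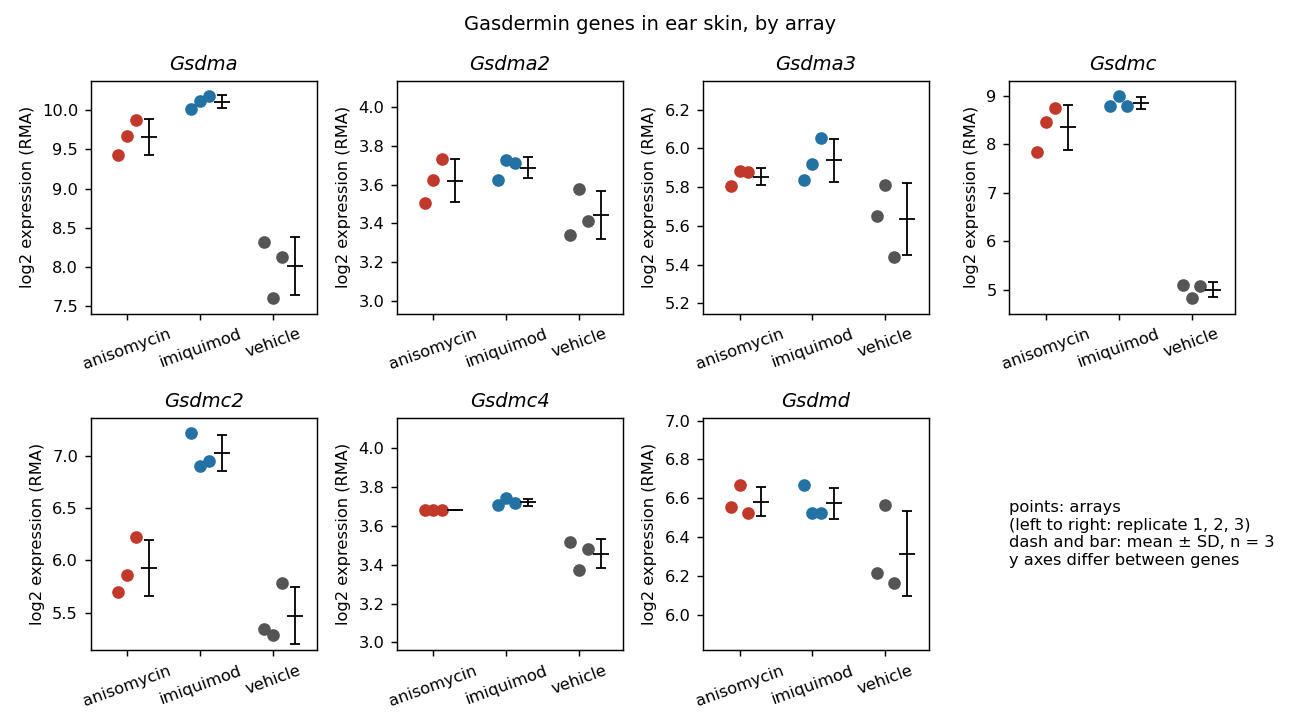
Log2 expression (y axis, a separate range for each gene) of the 7 measured gasdermins in anisomycin, imiquimod and vehicle ears (x axis). Points are arrays, and the dash with its bar is the mean ± SD of 3 arrays. For Gsdmc all 6 treated arrays lie between 7.84 and 8.99 and the vehicle arrays between 4.83 and 5.11, while for Gsdmd the groups overlap.

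Gsdmc, the member of the chromosome 15 cluster that shares its name with the human gene, showed the largest change of the set. Its values were 7.84, 8.46 and 8.76 in anisomycin ears, 8.78, 8.99 and 8.78 in imiquimod ears and 5.11, 4.83 and 5.08 in vehicle ears. Every treated array stood well above every vehicle array. The rise was 3.35 with anisomycin (SE 0.20, 95% confidence interval 2.90 to 3.79, limma adjusted p = 1.69e-06), a 10.2-fold change, and it ranked 86 of 19938 genes by size of rise. With imiquimod it was 3.85 (SE 0.20, interval 3.40 to 4.29, limma adjusted p = 1.19e-06), a 14.4-fold change, which ranked 46. The anisomycin arrays all lay below the imiquimod arrays, but the difference of -0.50 (interval -0.95 to -0.05) was not called, with a limma adjusted p of 0.116. That comparison passed the threshold with array weights and without anisomycin replicate 3, the highest of its group, where the difference was -0.70 (limma adjusted p = 0.0201). Without anisomycin replicate 1, the lowest, it was -0.24 and not called (limma adjusted p = 0.259).

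Gsdmc2, a tandem copy of Gsdmc, was the member whose response differed most between the treatments. Imiquimod ears had 7.22, 6.90 and 6.95, all above the anisomycin ears at 5.70, 5.87 and 6.22. Vehicle ears had 5.35, 5.29 and 5.79, and the highest of them exceeded the lowest anisomycin array. The rise with imiquimod was 1.55 (SE 0.16, interval 1.18 to 1.92, limma adjusted p = 6.54e-05), or 2.93-fold. With anisomycin it was 0.45 (interval 0.08 to 0.83) at a limma adjusted p of 0.0482, just inside the threshold. This call ended in 10 of 20 alternatives, among them leaving out anisomycin replicate 2 or 3, vehicle replicate 1 or 2 or any 1 of the imiquimod arrays, which enter only through the spread, with an adjusted p of up to 0.158. Anisomycin ears were lower than imiquimod ears by a log2 difference of -1.09 (interval -1.47 to -0.72, limma adjusted p = 0.00239), a 2.14-fold difference, and this call held in all 20 alternatives.

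Gsdmc4, the last coding copy in the cluster, lay near the bottom of the array's range, at the 5.06th percentile of all genes by its mean. It read 3.68 in each of the 3 anisomycin arrays, 3.71, 3.74 and 3.72 in imiquimod ears and 3.52, 3.37 and 3.48 in vehicle ears. The 3 deposited anisomycin values are identical, as they are for 301 of the 19938 genes in that group, so the spread behind its test is understated. Its differences of 0.23 with anisomycin (limma adjusted p = 0.00448) and 0.27 with imiquimod (limma adjusted p = 0.00203) were called (SE 0.05 each). The 1993 dimmest genes averaged 3.58, and whether Gsdmc4 exceeds background was not tested.

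Near-identical sequence limits what single members of the cluster can show. One further probe set is annotated to Gsdmc2, Gsdmc3 and Gsdmc4 together, and its signal cannot be given to one gene. It read 5.21, 5.26 and 5.38 in anisomycin ears, 5.88, 5.93 and 5.49 in imiquimod ears and 4.86, 4.94 and 4.98 in vehicle ears. No group overlapped another, with imiquimod highest and vehicle lowest. Over all 35556 rows of the table, its log2 fold change was 0.84 with imiquimod (SE 0.11, limma adjusted p = 0.000587) and 0.35 with anisomycin (limma adjusted p = 0.0362), and between the treatments it was -0.48 (limma adjusted p = 0.0266). The call for anisomycin against vehicle ended in 9 alternatives, among them leaving out any 1 of the arrays of those groups (limma adjusted p of up to 0.108). The call between the treatments ended in 6, among them leaving out replicate 1 or 2 of either treatment (limma adjusted p of up to 0.0928). Another probe set, annotated to Gsdmc2 and Gsdmc4, read 4.07, 3.96 and 4.49 in anisomycin ears, 3.80, 3.95 and 4.20 in imiquimod ears and 3.78, 3.83 and 3.94 in vehicle ears, and was called in none of the 3 comparisons (limma adjusted p of at least 0.123). Here the anisomycin mean was the highest, and the anisomycin and imiquimod arrays overlapped.

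In the Gsdma cluster on chromosome 11, Gsdma had the largest changes. Gsdma, which epidermis expresses, read 9.43, 9.67 and 9.88 in anisomycin ears, 10.02, 10.12 and 10.18 in imiquimod ears and 8.31, 7.60 and 8.12 in vehicle ears. No group overlapped another. The rise was 1.65 with anisomycin (SE 0.17, interval 1.25 to 2.04, limma adjusted p = 4.75e-05), or 3.13-fold, and 2.10 with imiquimod (SE 0.17, interval 1.70 to 2.49, limma adjusted p = 1.62e-05), or 4.27-fold. By size of rise it ranked 415 and 165 of 19938 genes. The anisomycin mean was below the imiquimod mean by a difference of -0.45 (interval -0.84 to -0.06) that was not called, with a limma adjusted p of 0.108. It passed the threshold with array weights, with only those groups in the fit, and without vehicle replicate 2 (limma adjusted p = 0.0232).

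Gsdma3, the copy whose mutations cause hair loss, differed by far less. It read 5.80, 5.88 and 5.88 in anisomycin ears, 5.84, 5.92 and 6.05 in imiquimod ears and 5.65, 5.81 and 5.44 in vehicle ears. Imiquimod arrays lay just above the vehicle arrays, and the lowest anisomycin array was level with the highest vehicle array. The rise with imiquimod was 0.30 (interval 0.09 to 0.51, limma adjusted p = 0.0255), while the anisomycin value of 0.22 (interval 0.01 to 0.43) was not called, with a limma adjusted p of 0.0828. Gsdma2, which lies between them, was dim, at the 4.57th percentile of all genes, and read 3.51, 3.62 and 3.73 in anisomycin ears, 3.62, 3.72 and 3.71 in imiquimod ears and 3.34, 3.58 and 3.41 in vehicle ears. Its rise of 0.24 with imiquimod was called (limma adjusted p = 0.0322) and the anisomycin value of 0.18 was not (limma adjusted p = 0.0987). Both imiquimod calls ended in 6 alternatives each, among them centring on stable genes and leaving out imiquimod replicate 2 or 3 or vehicle replicate 1 or 3, with adjusted p of up to 0.0971 for Gsdma3 and 0.119 for Gsdma2. The anisomycin values passed the threshold in 5 alternatives for Gsdma3 and 4 for Gsdma2, among them centring on medians, array weights and leaving out vehicle replicate 2, and for Gsdma2 also leaving out anisomycin replicate 1. Over all alternatives they ranged from 0.12, without vehicle replicate 3, to 0.32 for Gsdma3, and from 0.09 to 0.24 for Gsdma2. Between the treatments the differences were -0.08 for Gsdma3 (interval -0.29 to 0.13) and -0.07 for Gsdma2 (interval -0.24 to 0.11).

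Gsdmd, the main executioner of pyroptosis in myeloid cells, was not called in the 3 comparisons as fitted, and both comparisons with vehicle lay near the threshold. It read 6.56, 6.67 and 6.53 in anisomycin ears, 6.67, 6.53 and 6.53 in imiquimod ears and 6.21, 6.57 and 6.16 in vehicle ears. Vehicle replicate 2 lay among the treated arrays, and the other vehicle arrays lay below them all. The log2 differences from vehicle were 0.27 with anisomycin (interval 0.04 to 0.50, limma adjusted p = 0.0572) and 0.26 with imiquimod (interval 0.03 to 0.49, limma adjusted p = 0.0699). Without vehicle replicate 2 they were 0.39 and 0.38 and were called (limma adjusted p = 0.00156 and 0.00208). They were also called with repeated quantile normalization, cyclic loess, centring on medians and array weights, and for anisomycin without the dimmest genes, which makes 6 and 5 of 20 alternatives. Over all alternatives they ranged from 0.19 to 0.40 with anisomycin and from 0.18 to 0.38 with imiquimod. The treatments differed by 0.01 (interval -0.22 to 0.24).

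**Figure D2:**
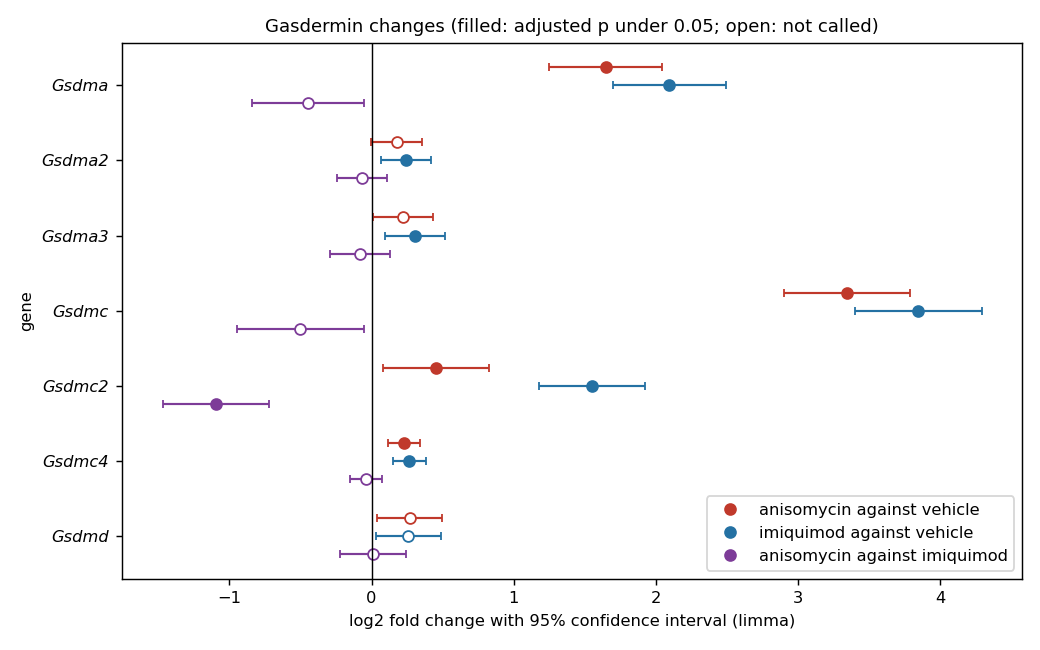
Log2 fold changes (x axis) of the 7 measured gasdermins (y axis) with 95% confidence intervals from limma, for each treatment against vehicle and for anisomycin against imiquimod. Filled points have an adjusted p under 0.05. Gsdmc (3.35 and 3.85) and Gsdma (1.65 and 2.10) stand apart from 0 with both treatments, Gsdmc2 is the member called between the treatments (-1.09), and the highest value of the other 4 is 0.30, for Gsdma3 with imiquimod.

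The anisomycin arrays varied more than the imiquimod arrays for the strongly responding members. The SD was 0.47 in anisomycin ears and 0.12 in imiquimod ears for Gsdmc, and 0.23 and 0.08 for Gsdma. For Gsdmc, Gsdma and Gsdmc2, anisomycin replicate 1 was the lowest of its group and replicate 3 the highest. The dim Gsdma2 had the same order, with SDs of 0.11 and 0.05, while Gsdma3, Gsdmc4 and Gsdmd varied less in anisomycin than in imiquimod ears. On the second principal component replicate 1 also lay farthest from the imiquimod arrays and replicate 3 nearest. The part of that spread in these values was not tested.

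In the RefSeq order of assembly GRCm38.p6, Gsdma3, Gsdma2 and Gsdma follow each other on chromosome 11 between Lrrc3c and Psmd3. Gsdmc, Gsdmc2, Gsdmc3 and Gsdmc4 follow each other on chromosome 15, interleaved with pseudogenes. Among genes measured here they lie between Macroh2a3 and the pseudogene Gsdmcl-ps, which Cyrib follows. The neighbours of the Gsdma cluster ranged from -0.56 for Ormdl3, a regulator of sphingolipid synthesis, to 0.70 for Csf3, the gene of granulocyte colony-stimulating factor, with anisomycin. With imiquimod the neighbour Psmd3, a proteasome subunit, rose by 0.89 (limma adjusted p = 9.23e-06). Beside the Gsdmc cluster, Cyrib, which binds the GTPase Rac, rose by 1.79 with anisomycin (limma adjusted p = 1.86e-07) and by 1.39 with imiquimod (limma adjusted p = 1.27e-06). Myc, on the other side, rose by 0.71 and 0.45. Asap1, the measured gene after Cyrib, changed by -0.52 with anisomycin (limma adjusted p = 0.000297) and was at -0.15 with imiquimod, not called. The pseudogene Gsdmcl-ps, between Gsdmc4 and Cyrib, fell by 0.28 with anisomycin (limma adjusted p = 0.0361) and was not called with imiquimod at -0.24. Its anisomycin call ended in 12 of 19 alternatives, among them leaving out anisomycin or vehicle replicate 1 or 2 or any imiquimod array (limma adjusted p of up to 0.125). The anisomycin and vehicle arrays of Gsdmcl-ps overlapped. A pair of probe sets annotated to Gsdmcl-ps together with Gsdmcl1 and Gsdmcl2 read the other way, at 0.08 and 0.12 with anisomycin and 0.17 and 0.19 with imiquimod, and none of these was called (limma adjusted p of at least 0.115). Gsdmd lies apart on chromosome 15, where the nearby translation factor gene Eef1d rose by 0.58 and 0.65 with anisomycin and imiquimod (limma adjusted p = 0.000708 and 0.000442). Naprt, the next measured gene after Gsdmd, changed by -0.26 with anisomycin (limma adjusted p = 0.0261) and was at -0.14 with imiquimod, not called. That anisomycin call ended in 7 of 20 alternatives (limma adjusted p of up to 0.123).

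**Figure D3:**
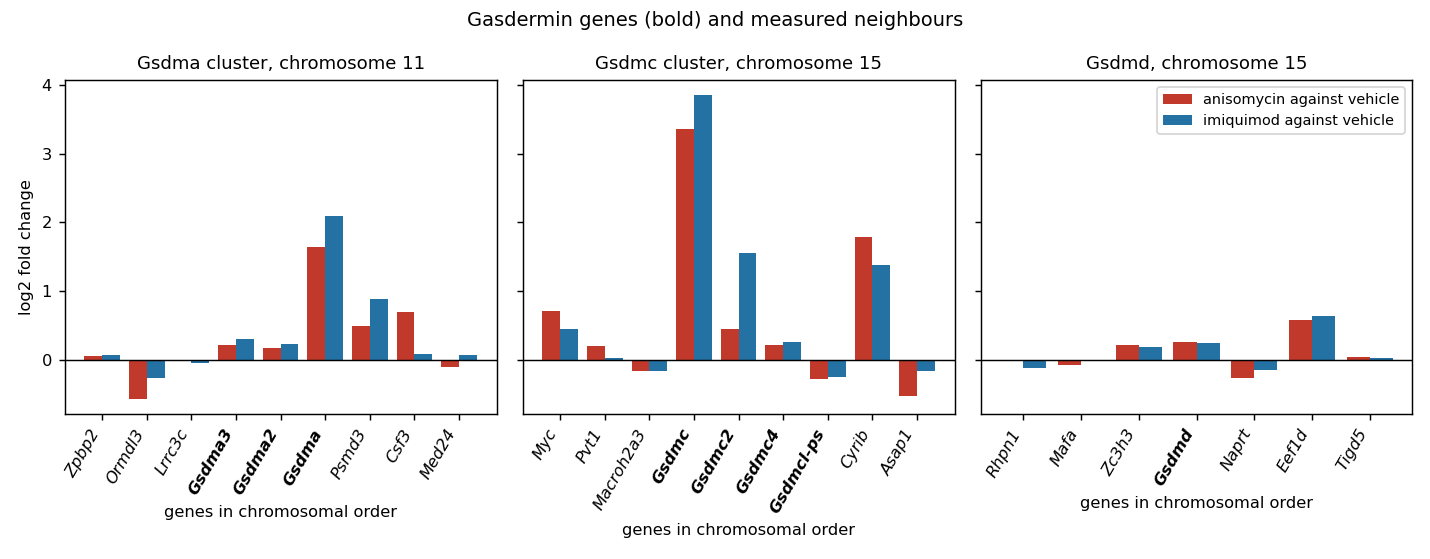
Log2 fold changes (y axis) with anisomycin and with imiquimod against vehicle for gasdermin genes (bold) and the 3 nearest measured genes on each side, in chromosomal order (x axis, order only, not to scale). The neighbouring pseudogene Gsdmcl-ps is also in bold. Gsdmc (3.35 and 3.85) exceeds the neighbours of its cluster, the highest of which is Cyrib at 1.79 and 1.39. Gsdma (1.65 and 2.10) exceeds the neighbours of its own cluster. The highest of those are Csf3 at 0.702 with anisomycin and Psmd3 at 0.885 with imiquimod.

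For each member the genes with the most similar pattern were found by the root mean square difference of mean-centred log2 values over the 9 arrays, a description in which all genes share arrays and groups. Nearest to Gsdmc were Pla2g4e, a cytosolic phospholipase (difference 0.20), Gjb6, a gap junction connexin (0.24), and Degs2, a sphingolipid enzyme (0.29), where Gsdmc itself varied by 1.72 around its mean. Their changes were 3.39, 3.45 and 3.85 with anisomycin and 3.75, 3.74 and 3.94 with imiquimod. Nearest to Gsdma were Ncaph, a condensin subunit (0.10), Kpna2, a nuclear import receptor (0.12), and Rrm2, a subunit of ribonucleotide reductase (0.12), against 0.93 for Gsdma around its own mean. These rose by 1.47, 1.47 and 1.77 with anisomycin and by 1.92, 1.91 and 2.20 with imiquimod. Nearest to Gsdmc2 were Adgre1, the gene of the macrophage antigen F4/80 (0.15), Egln3, a prolyl hydroxylase that acts on hypoxia-inducible factors (0.17), and Otub2, a deubiquitinase (0.18), against 0.68 for Gsdmc2. For the small changes of the other members the nearest genes lay at differences of 0.03 to 0.07. These members themselves varied by 0.12 to 0.17 around their own means. The nearest genes were Carm1, Mlec and Ankrd52 for Gsdma2 and Tor2a, Xxylt1 and Gpr26 for Gsdma3. For Gsdmc4 they were Gtpbp1, Sec24a and Ccl17, and for Gsdmd they were Prex1, Spata13 and Cmtm7.

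Genes of pathways related to gasdermins were taken from lists of 65 genes, of which 56 were measured. The lists also hold other gasdermins, pseudogenes, and necroptosis and death receptor genes. With anisomycin 31 were called higher and 11 lower, with a median of 0.25, where 22.3% of all genes were called higher and 23.3% lower. With imiquimod 25 were higher and 4 lower, with a median of 0.18, where the shares of all genes were 20.4% and 22.4%. The counts for the single lists below, most of them short, are to be read against the same shares. Among other gasdermins, Gsdme, a gene also linked to hearing loss in humans, rose by 0.25 with anisomycin (SE 0.07, limma adjusted p = 0.0153). That call ended in 3 of 20 alternatives, among them leaving out anisomycin or vehicle replicate 1 (limma adjusted p of up to 0.109). With imiquimod Gsdme was at 0.11, not called. A further, dim Gsdme probe set had means of 3.63 in anisomycin, 3.64 in imiquimod and 3.53 in vehicle ears. Pjvk, a gene of inner ear hair cells, was not called at -0.08 and -0.09.

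Among the 5 measured caspases, 2 rose and 1 fell with anisomycin and 3 rose with imiquimod. Casp4, the mouse caspase that senses cytosolic lipopolysaccharide and cuts Gsdmd, had 6.42, 6.60 and 5.72 in anisomycin ears, 5.57, 5.63 and 6.07 in imiquimod ears and 4.39, 4.63 and 4.74 in vehicle ears. All treated arrays lay above all vehicle arrays, with rises of 1.66 (SE 0.22, limma adjusted p = 0.000199) and 1.17 (SE 0.22, limma adjusted p = 0.002). Casp8, whose product cuts human GSDMC, rose by 0.76 (limma adjusted p = 3.92e-05) and 0.64 (limma adjusted p = 0.000144). Casp1, the inflammasome caspase, was at -0.04 with anisomycin, not called, and rose by 0.32 with imiquimod (limma adjusted p = 0.00771). It was lower with anisomycin than with imiquimod, at -0.37 (limma adjusted p = 0.0105). Casp9, the initiator of mitochondrial apoptosis, fell by 0.25 with anisomycin (limma adjusted p = 0.0091) and was at -0.11 with imiquimod. Casp12 was not called at 0.11 and -0.26.

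Of the 5 granule proteases reported to cut gasdermins, the granzyme gene Gzmb rose by 0.55 with anisomycin and 0.51 with imiquimod, and Gzma, whose product cuts human GSDMB, rose by 0.40 with imiquimod (limma adjusted p = 0.00132) and was at 0.06 with anisomycin. The cathepsin G gene Ctsg fell by 0.29 and 0.32. Its anisomycin call ended in 5 of 19 alternatives, among them leaving out anisomycin replicate 1 or vehicle replicate 1 or 3 (limma adjusted p of up to 0.0744), and its imiquimod call ended with cyclic loess (limma adjusted p = 0.0609). The elastase gene Elane (0.12 and -0.03) and Prtn3 (-0.02 and -0.01) were not called.

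The inflammasome list was split in direction with anisomycin. Of its 15 measured genes 6 rose and 5 fell with anisomycin, and 6 rose and 2 fell with imiquimod. The 2 lower with imiquimod were Nek7 (-0.35 with anisomycin and -0.40 with imiquimod) and the pseudogene Nlrp1c-ps. Both were also among the 5 lower with anisomycin. Nlrp3, a sensor of membrane damage, rose by 3.36 with anisomycin (SE 0.23, limma adjusted p = 3.81e-06) and 2.06 with imiquimod (SE 0.23, limma adjusted p = 9.15e-05), and more with anisomycin by 1.30 (limma adjusted p = 0.00504). Mefv, the pyrin gene, rose by 1.74 and 1.09, Aim2, a DNA sensor, by 0.70 and 0.52, and Zbp1, a sensor of Z-form nucleic acid, by 0.96 and 1.22. Pycard, the adaptor ASC, read 7.21, 7.32 and 7.93 in anisomycin ears, 8.64, 8.70 and 8.65 in imiquimod ears and 8.65, 8.31 and 8.48 in vehicle ears. The anisomycin arrays lay below all others, with a log2 change of -0.99 against vehicle (limma adjusted p = 0.000837) and a difference of -1.18 from imiquimod (limma adjusted p = 0.00173). Nlrp10, an epidermal sensor, changed by -1.65 with anisomycin (limma adjusted p = 0.000128) and was at -0.54 with imiquimod, not called (limma adjusted p = 0.0579). Nlrp1c-ps, a pseudogene of the Nlrp1 cluster, changed by -0.84 and -0.91.

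Of 7 measured genes of cytokines that gasdermin pores release and their partners, 5 were called higher and 1 lower with anisomycin, and 4 higher and none lower with imiquimod. Il1b read 10.99, 11.40 and 10.79 in anisomycin ears, 10.55, 10.15 and 10.87 in imiquimod ears and 4.42, 4.52 and 4.34 in vehicle ears, and rose by 6.63 and 6.097. Il1a rose by 3.64 and 3.43 and the alarmin Il33 by 2.80 and 1.49, the last more with anisomycin by 1.31 (limma adjusted p = 0.0022). Il18, which keratinocytes hold ready as a precursor, rose by 0.62 with anisomycin (limma adjusted p = 0.00712) and was at 0.35 with imiquimod, not called (limma adjusted p = 0.091). The receptor antagonist gene Il1rn rose by 1.53 and 1.74. Hmgb1, a nuclear protein released by dying cells, changed by -0.77 with anisomycin (limma adjusted p = 0.00211) and was at -0.28 with imiquimod, not called. Il18bp, which binds and neutralises IL-18, was not called at -0.11 and -0.12.

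Of 12 genes of membrane rupture, repair and regulation, 8 rose and 2 fell with anisomycin, and 5 rose and 1 fell with imiquimod. Ninj1, whose product ruptures the membrane after pore formation, rose by 0.46 with anisomycin (SE 0.05, limma adjusted p = 8.97e-05) and was at 0.10 with imiquimod, not called, a difference of 0.36 between the treatments (limma adjusted p = 0.00221). Irf2, a transcription factor that drives Gsdmd, rose by 0.37 with anisomycin (limma adjusted p = 0.0016), was at -0.05 with imiquimod and differed between them by 0.43 (limma adjusted p = 0.00322). The factors Stat3 (0.86 and 0.83), Irf1 (0.71 and 0.41) and Irf8 (0.68 and 0.56) rose with both. Irf1 has several probe sets that disagreed, and their mean gave 0.18 with anisomycin and -0.005 with imiquimod.

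Of 9 measured necroptosis and death receptor genes, 8 rose and none fell with anisomycin, and 5 rose and none fell with imiquimod. Ripk3, the kinase that starts necroptosis, rose by 1.86 (SE 0.07, limma adjusted p = 1.31e-07) and 1.52 (SE 0.07, limma adjusted p = 7e-07). Mlkl, the pore-forming protein it activates, rose by 1.46 (limma adjusted p = 4.4e-07) and 1.19 (limma adjusted p = 2.24e-06). The death receptor gene Tnfrsf10b rose by 0.90 with anisomycin and was at 0.03 with imiquimod, a difference of 0.87 between the treatments (limma adjusted p = 0.000665). Tnfrsf1a, the tumour necrosis factor receptor, rose by 0.61 and 0.82, and the survival gene Bcl2l1 by 0.54 with anisomycin and was at 0.17 with imiquimod, not called.

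**Figure D4:**
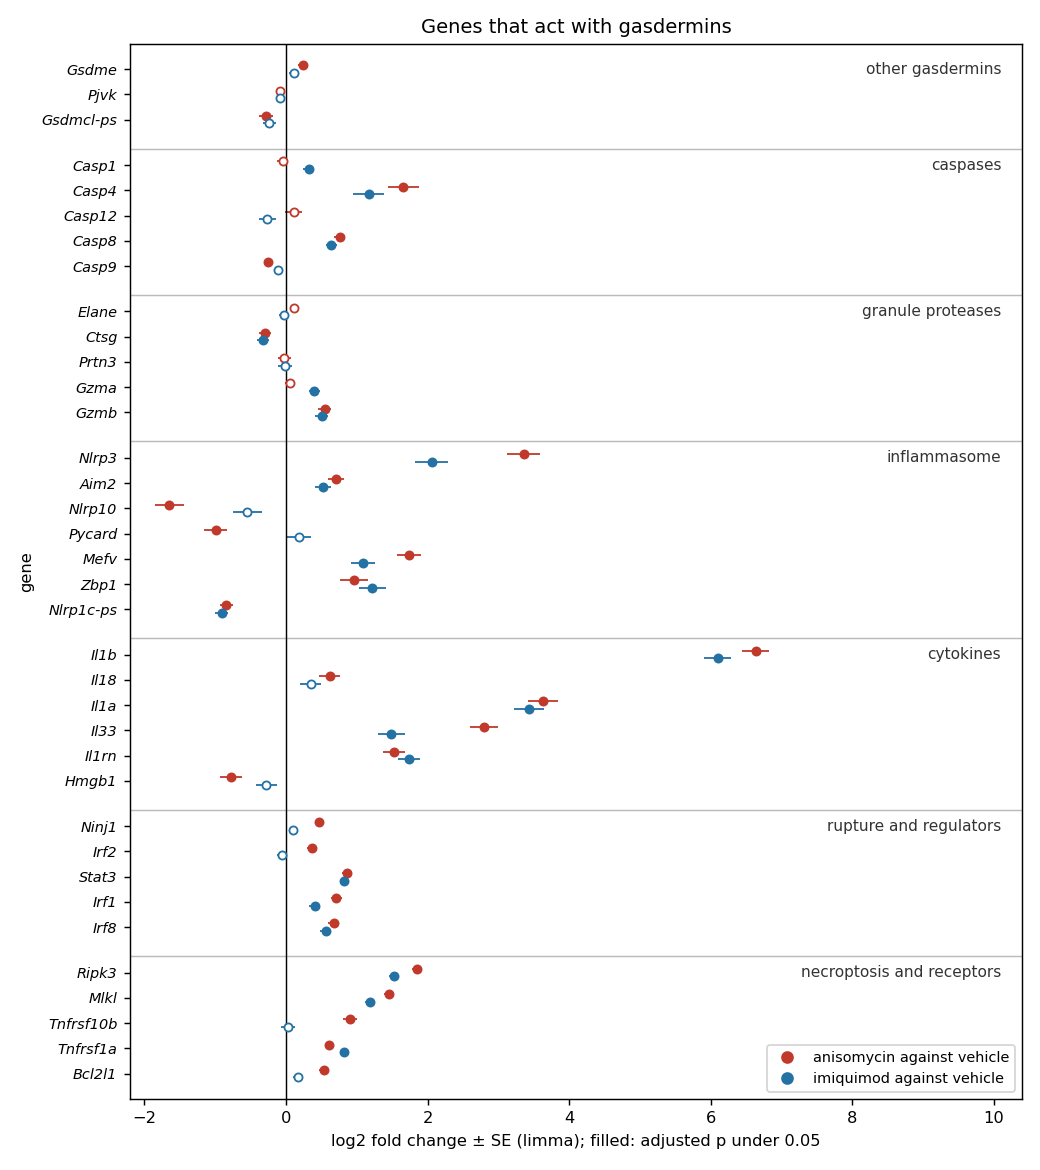
Log2 fold changes ± SE from limma (x axis) with anisomycin and with imiquimod against vehicle. The y axis gives the named genes of the pathway lists, grouped by list. Filled points have an adjusted p under 0.05. Il1b lies farthest from 0 (6.63 and 6.097), and Pycard (-0.99 and 0.18) and Nlrp10 (-1.65 and -0.54) are lower with anisomycin.

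Markers of cell types that make gasdermins moved in the same arrays. Of 11 neutrophil markers 8 rose with anisomycin and 9 with imiquimod, with a mean level over the list of 7.37 to 7.69 in anisomycin ears, 7.79 to 7.88 in imiquimod ears and 5.18 to 5.28 in vehicle ears. Of 9 monocyte and macrophage markers 8 rose with each treatment, with mean levels of 9.00 to 9.17, 8.91 to 9.01 and 7.41 to 7.54 in the same order of groups. Suprabasal and granular keratinocyte markers gave 5 higher and 3 lower of 8 with anisomycin and 5 higher and 1 lower with imiquimod, with mean levels of 10.3 to 10.9, 10.8 to 11.1 and 9.83 to 10.5. Basal keratinocyte markers gave 2 higher and 2 lower of 6 and 3 higher and 2 lower. Their mean levels were 10.89 to 11.01, 10.85 to 10.96 and 11.1 to 11.33, lower in all treated arrays than in vehicle arrays. Hair follicle markers gave 1 higher and 8 lower of 11 with anisomycin, 1 higher and 5 lower with imiquimod, and mean levels of 5.78 to 5.91, 5.91 to 6.31 and 6.28 to 6.50. Sebaceous gland markers gave 1 higher and 4 lower of 10, and 3 higher and 2 lower, with mean levels of 8.32 to 9.11, 9.15 to 9.55 and 8.84 to 9.17. The part of these shifts in the gasdermin values was not tested.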

How the data were processed

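Ear skin RNA from 9 samples was hybridised to whole-transcript mouse arrays. The deposited log2 values are in 1 table for the series, which the authors made with RMA (background correction, quantile normalization, probe summary), per the submitters' processing notes. The version of RMA and the genome build were not given in the sources used here. That the scale is log2 was judged from the range of 2.39 to 13.97. No 2 columns were identical.

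Of 35556 rows, 21789 carry 1 gene symbol, 1621 several and 12146 none. Only rows with 1 symbol were used, except for probe sets shared by Gsdmc genes, which were fitted over all rows. The brightest probe set per symbol was kept, which gave 19938 genes with no filter on dim genes. RefSeq Entrez identifiers matched 21698 rows and changed 0 symbols. Group means were fitted gene by gene (limma 3.58.1, R 4.3.3) over 9 arrays with no covariates (6 residual and 3.16 prior degrees of freedom), two-sided. Precision is limited by 3 arrays a group, where an exact permutation test reaches 0.1 at best, and limma's pooled variance carries the calls. The fit was run on simulated data of independent noise, with 200 of 19938 genes changed. It recovered 80.4% of log2 changes of 0.5, 99% of 1 and 100% of 2, with 5.24% false calls. Far more genes were called in these data, so that run cannot give the error rate here.

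The members and lists were chosen with earlier results of these data known. Named were the members, preset genes of each pathway list, up to 3 more per list by size of change, and 3 genes of most similar pattern per member. Cell type marker lists are given by counts and mean levels, although the naming rule covered their genes too. Neighbours were chosen by position. Listed genes without a probe set of their own were not analysed here. Alternatives were another variance prior, a filter on dim genes, other normalizations and centrings, the mean of probe sets, all rows, array weights, a replicate block, only the groups compared, and leaving out each array.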

Additional observations from a re-analysis of the deposited data

Results flagged for a closer look

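The effects of anisomycin and imiquimod differed for Gsdmc2, by the test between the treated groups, with a log2 difference of -1.09 (limma adjusted p = 0.00239). All 3 anisomycin arrays lay below all 3 imiquimod arrays.

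A signal above vehicle was also seen in a probe set outside the gene-level comparisons, the one annotated to Gsdmc2, Gsdmc3 and Gsdmc4 together, with log2 fold changes of 0.354 for anisomycin and 0.838 for imiquimod against vehicle. Its call for anisomycin ended in 9 of 17 alternatives. The other shared probe set, of Gsdmc2 and Gsdmc4, was not called in any comparison as fitted, and its anisomycin mean was above its imiquimod mean.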

How the results depend on the processing

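Each result was recomputed under 20 alternatives where a value could be had. Of 414 values for the gasdermins, 364 kept direction and side of the threshold, 22 lost a call, 25 gained one and 3 changed sign, none of them called. The rises of Gsdmc and Gsdma over vehicle and of Gsdmc2 with imiquimod, and the difference of Gsdmc2 between the treatments, kept their calls in all. Those of Gsdmc4 over vehicle held in the 19 alternatives it entered, where its equal anisomycin values understate the spread. Gasdermins called for anisomycin against vehicle numbered 4, and 7 with arrays centred on medians or with array weights. Of all genes 9095 were called in that comparison, 9180 with arrays centred on medians and 10310 with array weights. Between the treatments 1 was called, 3 with array weights, 2 with only the groups compared, and 1 to 2 leaving out single arrays. Genes called between the treatments numbered 4059, 8557 with array weights, 4429 with only the groups compared, and 2523 to 4766 leaving out single arrays. For imiquimod against vehicle 6 gasdermins were called, and 4 to 7 under the alternatives that kept all arrays. Genes called there numbered 7992 to 11631, the most with all rows tested. Leaving out single arrays gave 3 to 6 gasdermins for anisomycin and 4 to 7 for imiquimod against vehicle, where 7921 to 8725 and 7265 to 8611 genes were called. Gsdmd between the treatments ranged from -0.0312 to 0.0576 in the same way. The causes were not tested.

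For uncalled log2 fold changes near 0, signs turned. With anisomycin, Prtn3 was 0.014 after repeated quantile normalization, 0.0322 with cyclic loess, 0.0285 with centring on medians, 0.00902 with array weights and -0.108 to 0.0778 leaving out single arrays. Casp1 was 0.0156 with loess, 0.00448 with medians and -0.105 to 0.0402 leaving out arrays, and Gzma was -0.0254 with stable genes. With imiquimod, Prtn3 was 0.0323, 0.0603 and 0.0291 (quantile, loess, medians) and -0.0644 to 0.0466 leaving out arrays. Elane was 0.0233, 0.0623 and 0.0123 under the same settings and -0.0621 to 0.0134 leaving out arrays. Tnfrsf10b was -0.0404 with stable genes and -0.0285 to 0.0766 leaving out arrays. The called rise of Irf1 with imiquimod became -0.00479 with the mean of its probe sets.

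No pairing by replicate number was seen: deviations of same-numbered samples correlated between -0.201 and 0.196, and of others between -0.238 and 0.254. Deviations from a mean of 3 arrays depend on each other, so this cannot exclude pairing. With the replicate block 8924, 8280 and 3734 genes were called for anisomycin and imiquimod against vehicle and between the treatments, against 9095, 8519 and 4059 without it, and no call of a gasdermin gene changed. Of the shared probe sets, that of Gsdmc2, Gsdmc3 and Gsdmc4 lost its calls for anisomycin against vehicle and between the treatments, and that of Gsdmc2 and Gsdmc4 gained one, at 0.322 with anisomycin. Arrays of 3 per group, near-identical gene copies and dim signal for Gsdma2 and Gsdmc4 limit what these values show.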
